A study of Mus musculus with 6 samples.

Results

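The set described here holds 33 genes of cholesterol synthesis, uptake, movement and efflux, chosen by name for their known roles in the pathway, with earlier results of these data in view, of 17924 genes in the expression table. It does not comprise every gene of the pathway. The study asked what loss of Nelfb, a subunit of the negative elongation factor that pauses RNA polymerase near gene starts, does to adipocyte formation. Dermal fibroblasts were taken from the dorsal skin of newborn (postnatal day 0) C57BL/6J mice, kept in adipocyte differentiation medium for 14 days and profiled by RNA-seq. The 3 CTL libraries came from animals that carried Pdgfra-Cre with Nelfb fl/wt or wt/wt, and the 3 Nelfb-/- libraries from animals that carried Pdgfra-Cre with Nelfb fl/fl. All 6 libraries therefore carry the Cre transgene, and the Pdgfra promoter directs deletion to cells of that lineage. Which cells of the cultures were deleted was not measured here. The samples are named as biological triplicates, and p-values measure the spread between these libraries.

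Cells hold membrane cholesterol within narrow limits through a pair of opposed transcription programmes. When sterol in the endoplasmic reticulum falls, SCAP escorts the transcription factor SREBP2 (gene Srebf2) to the Golgi for cleavage, and its active fragment turns on the synthesis enzymes, while INSIG proteins retain SCAP when sterol is plentiful. When oxysterols accumulate, the liver X receptors LXRα (Nr1h3) and LXRβ (Nr1h2) turn on genes that export cholesterol. Adipocytes store much of their unesterified cholesterol at the surface of the lipid droplet. The members were placed in an SREBP2 arm of 21 genes (18 synthesis enzymes with Srebf2, Insig1 and Stard4), an LXR arm of 6 genes (both receptors with Abca1, Abcg1, Apoe and Mylip) and 6 other genes of sensing and movement (Scap, Insig2, Npc1, Npc2, Soat1 and Scarb1).

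Levels are CPM, a gene's share of the listed reads of its library scaled to 1e+06, and 3 reads, the floor used here, were worth 0.102 to 0.175 CPM. The libraries held an estimated 17.2 to 29.4 M reads (M, 1e+06) on the listed genes, taken from the step between low CPM values. For Nelfb itself, the CTL libraries held 17.3, 19.6 and 22.3 CPM (replicates 1, 2 and 3) and the Nelfb-/- libraries 5.50, 3.90 and 5.55 CPM, and values below keep this order. Its log2 fold change of Nelfb-/- relative to CTL was -1.99 (SE 0.22, limma adjusted p = 0.0050). Adipocyte markers were expressed in every library, with a sum over 7 genes of 16282 to 25100 CPM in CTL versus 7224 to 16226 CPM in Nelfb-/- cells. The sum of 6 fibroblast markers was 11538 CPM in CTL replicate 3 against 2915 and 3300 CPM in the other CTL libraries, while Nelfb-/- replicate 1 had 5680 CPM and the other Nelfb-/- libraries 22759 and 24585 CPM. Col1a1 and Col3a1 carried most of that sum. Together with Pdgfra, Lum and Thy1 they were highest in CTL replicate 3 and lowest in Nelfb-/- replicate 1 within their groups, though Pdgfra was nearly level across the Nelfb-/- libraries (476, 499 and 509 CPM), and Dcn was lowest in CTL replicate 3 (310 CPM against 467 and 501 CPM). By this sum, CTL replicate 3 and Nelfb-/- replicate 1 stood apart from the other libraries of their groups, and values without both are also given.

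A gene was called when its limma adjusted p (Benjamini-Hochberg over all genes tested) was at most 0.05 and its change at least 2-fold. Of the 33 members, 1 was called, Cyp51, which was lower in Nelfb-/- cells. No member was called higher by limma, 7 had an unadjusted p under 0.05, and 3 passed the adjusted p limit alone (Cyp51, Fdft1 and Nr1h3, all lower). Of all 16252 genes tested, 11.2% were called, 3.64% lower and 7.58% higher, and 15.8% passed the adjusted p limit alone. The log2 fold change was below 0 at 23 of 33 members, against 45.4% of all genes tested. The groups overlapped at 24 of 33 members, while 8 were lower and 1 higher in Nelfb-/- cells without overlap, against 38.1% of all genes tested without overlap (16.1% lower and 22.0% higher). Over the 4 LXR targets, without the receptor genes, the median log2 fold change was -0.24. The median was -0.16 over the SREBP2 arm and -0.52 over the LXR arm (receptor genes included), against 0.07 over all genes tested. Leaving out 1 library moved the former between -0.49 (without CTL replicate 2) and 0.06 (without CTL replicate 3, with 0.03 without Nelfb-/- replicate 1), and the latter between -0.63 and -0.41. In a fit of 2 against 2 libraries without CTL replicate 3 and Nelfb-/- replicate 1, which were chosen for omission after their values were seen, 10 members were called, 5 higher and 5 lower, while the share of all genes called was 27.0%. The median of the SREBP2 arm was then 0.32 and that of the LXR arm -0.81. Omitting libraries because they stood apart narrows the spread within groups by construction, and this fit is given as a description.

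**Figure D1:**
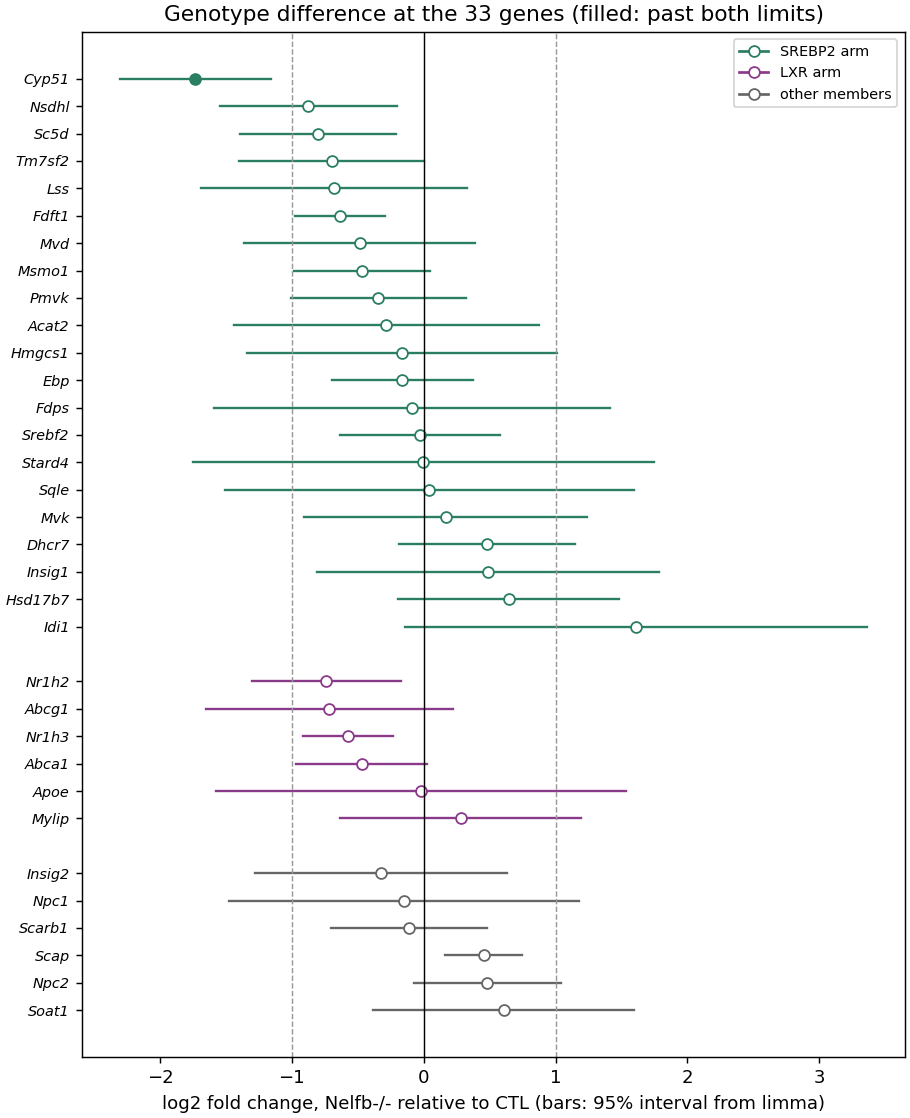
Log2 fold change of Nelfb-/- relative to CTL cells (horizontal axis) for each of the 33 genes, ordered within the SREBP2 arm, the LXR arm and the other members. Points are limma estimates from 3 CTL and 3 Nelfb-/- libraries, bars are 95% intervals, dashed lines mark 2-fold, and the filled point, Cyp51 at -1.73, is the member past both limits.

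The promoter letters of 4 members are shown as examples of both arms: Cyp51, the called member, Idi1, the member with the largest log2 fold change above 0, Hmgcs1, the highest mevalonate gene per kilobase of exon in both groups, and Abca1, a sterol exporter of the LXR arm that has a window. Each run spans 250 bases before to 50 bases after the RefSeq start (build GRCm38.p6), 5′ to 3′ on the gene's strand, and 35 RefSeq windows were matched for 26 of the 33 members. Some genes have several annotated starts, and a gene was counted once where any of its windows held a motif, among members and among all genes alike. Capitals mark a sterol regulatory element (searched as TCACNCCAC), a CCAAT box (CCAAT) or an E-box (CACGTG), each on either strand, so that ATTGG is a CCAAT box read on the other strand.
Cyp51 (chr5:4104648-4104947, minus strand): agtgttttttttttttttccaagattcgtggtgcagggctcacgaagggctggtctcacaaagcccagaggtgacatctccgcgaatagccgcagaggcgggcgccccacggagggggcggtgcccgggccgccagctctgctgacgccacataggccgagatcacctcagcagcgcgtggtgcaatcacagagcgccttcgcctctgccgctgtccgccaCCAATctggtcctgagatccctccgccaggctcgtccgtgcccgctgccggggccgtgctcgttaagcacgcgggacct
Idi1 (chr13:8885356-8885655, plus strand): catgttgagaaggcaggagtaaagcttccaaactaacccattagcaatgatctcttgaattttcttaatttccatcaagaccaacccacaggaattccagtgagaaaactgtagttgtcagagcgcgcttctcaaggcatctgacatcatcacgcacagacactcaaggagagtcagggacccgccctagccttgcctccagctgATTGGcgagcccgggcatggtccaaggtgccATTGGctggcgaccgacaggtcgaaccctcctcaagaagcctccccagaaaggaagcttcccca
Hmgcs1 (chr13:119690101-119690400, plus strand): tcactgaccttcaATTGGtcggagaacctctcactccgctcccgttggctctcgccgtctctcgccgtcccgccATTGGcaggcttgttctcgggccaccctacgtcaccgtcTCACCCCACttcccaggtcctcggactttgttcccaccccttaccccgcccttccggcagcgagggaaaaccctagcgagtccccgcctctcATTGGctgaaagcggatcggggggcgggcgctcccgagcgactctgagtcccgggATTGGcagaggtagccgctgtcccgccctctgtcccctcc
Abca1 (chr4:53159846-53160145, minus strand): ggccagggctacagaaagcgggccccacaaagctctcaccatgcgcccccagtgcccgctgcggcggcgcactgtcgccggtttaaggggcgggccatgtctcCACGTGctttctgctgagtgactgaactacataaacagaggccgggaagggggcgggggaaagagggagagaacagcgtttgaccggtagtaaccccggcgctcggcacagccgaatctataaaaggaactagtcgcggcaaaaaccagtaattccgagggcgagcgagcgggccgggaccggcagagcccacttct

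The sterol regulatory element letters were present in 1 of the 26 genes, Hmgcs1, and in 1.44% of 27025 genes. Other forms of the element, and elements outside the windows, would be missed by this search. Scarb1, Abcg1, Fdft1, Fdps, Stard4, Npc1 and Sqle had no window. Binding sites of the liver X receptors were not searched. CCAAT boxes were found for 20 of 26 members and for 14 of 15 enzymes, Acat2 being the exception, against 41.1% of all genes. Of the 5 LXR arm genes with a window, Mylip had a CCAAT box. E-box letters were found for 6 of 26 members, Abca1 among them, and for 8.09% of all genes. A match describes the letters of these windows and was not tested against binding.

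Cyp51, the lanosterol demethylase that opens the path from lanosterol to cholesterol, had the largest difference of the set in the fit to all 6 libraries, though Idi1 was further from 0 without CTL replicate 3 (2.28 against -1.97) or Nelfb-/- replicate 1 (2.25 against -1.66). Cyp51 was at 724, 654 and 415 CPM in CTL versus 158, 192 and 177 CPM in Nelfb-/- cells. Its library order within each group was that of the adipocyte marker sum, and the part of either in the other was not tested. No Nelfb-/- value of Cyp51 reached its CTL range, and the lowest CTL value was that of replicate 3. The means were 598 ± 162 and 176 ± 17.2 CPM (SD, n = 3 each), 3.40-fold apart (log2 fold change -1.73, SE 0.24, limma adjusted p = 0.0084). Cyp51 (ENSMUSG00000001467, chr5:4081145-4104746, mm10) stayed called in 5 of 6 fits that left out 1 library, at -1.97 to -1.57, and missed the limit without Nelfb-/- replicate 3 (adjusted p = 0.052, against 0.0043 at the lowest). Without both libraries that stood apart it was at -1.90. It made up 45.0%, 45.4% and 20.98% of the summed CPM of the 18 enzymes in CTL and 21.2%, 13.7% and 13.5% in Nelfb-/- cells. Per kilobase of annotated exon its rank by mean level was 3 of 33 in CTL and 5 in Nelfb-/- cells. Its exons overlap those of Akap9 on the opposite strand. Whether reads were counted by strand is not stated, so the levels of Cyp51 and of the other members with such an overlap may include reads of the other gene.

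The other 7 enzymes after lanosterol were not called, and 4 of them were lower in every Nelfb-/- library than in any CTL library, as were 16.1% of all genes tested. Tm7sf2, a sterol reductase, was at 6.11, 5.90 and 11.2 CPM in CTL versus 4.22, 4.69 and 4.72 CPM in Nelfb-/- cells, the lowest of the set per kilobase. Msmo1, the C4 methyl oxidase, was at 54.9, 64.4 and 92.8 against 44.7, 51.6 and 53.5 CPM. Nsdhl, which completes C4 demethylation with it, was at 72.6, 52.3 and 91.3 against 27.7, 46.5 and 43.7 CPM. In all of these the CTL maximum was replicate 3 and the Nelfb-/- minimum replicate 1. Sc5d, the desaturase that makes 7-dehydrocholesterol, was at 93.2, 65.0 and 120.5 CPM in CTL versus 43.8, 53.6 and 58.3 CPM in Nelfb-/- cells, without overlap. The log2 fold changes were -0.70 for Tm7sf2, -0.47 for Msmo1, -0.87 for Nsdhl and -0.80 for Sc5d, with limma adjusted p of 0.16, 0.19, 0.083 and 0.074. Without both libraries that stood apart they were -0.35, -0.18, -0.45 and -0.48. Exons of Tm7sf2 overlap Vps51 on the same strand, and its level is uncertain on that account.

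The remaining enzymes after lanosterol overlapped between groups. Hsd17b7, the keto reductase of C4 demethylation, was at 21.1, 19.2 and 44.4 CPM in CTL versus 32.0, 48.7 and 44.0 CPM in Nelfb-/- cells. Dhcr7, the reductase of the last step through 7-dehydrocholesterol, was at 52.2, 42.4 and 71.4 against 53.8, 92.0 and 86.4 CPM. For both, the Nelfb-/- libraries lay above CTL replicates 1 and 2, and replicate 3 of CTL reached into the Nelfb-/- range. Ebp, the sterol isomerase, was at 26.7, 25.8 and 41.3 against 31.7, 24.5 and 26.1 CPM, with no separation. The log2 fold change of Hsd17b7 was 0.64 (95% interval -0.19 to 1.48, limma adjusted p = 0.26), and it was called without CTL replicate 3, at 1.02 with an adjusted p of 0.026 (0.026 to 0.56 over the 6 fits that left out 1 library). Dhcr7 was at 0.48 (-0.18 to 1.14) and Ebp at -0.16 (-0.70 to 0.38), against 0.92 and -0.05 without both libraries that stood apart. Over the 8 genes, 5 were lower without overlap (16.1% of all genes tested were), and the median log2 fold change was -0.58. Without Cyp51, the summed level of the other 7 was 327, 275 and 473 CPM in CTL versus 238, 322 and 317 CPM in Nelfb-/- cells, with overlap.

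Genes of the squalene steps differed from each other. Fdft1, squalene synthase, was at 83.7, 83.0 and 65.2 CPM in CTL versus 50.4, 48.7 and 49.1 CPM in Nelfb-/- cells. The Nelfb-/- values were nearly equal and lay below all CTL values, of which replicate 3 was the lowest. The means were 77.3 ± 10.5 and 49.4 ± 0.913 CPM, and the difference of -0.64 on the log2 scale (SE 0.14, limma adjusted p = 0.031) passed the adjusted p limit and not the fold limit. Fdft1 missed the adjusted p limit in 4 of 6 fits that left out 1 library (limma adjusted p = 0.011 to 0.13), without CTL replicate 1 or 2 or Nelfb-/- replicate 2 or 3. Its log2 fold change was -0.77 without both libraries that stood apart. It shares exon sequence on opposite strands with Ctsb. Sqle, squalene epoxidase, was at 25.4, 26.6 and 114 CPM in CTL versus 25.1, 57.5 and 58.6 CPM in Nelfb-/- cells. Lss, lanosterol synthase, was at 62.2, 51.2 and 136 against 31.5, 60.5 and 55.4 CPM. In both, CTL replicate 3 was the highest of the 6 libraries and Nelfb-/- replicate 1 the lowest. Their log2 fold changes of 0.04 (-1.51 to 1.59) and -0.68 (-1.69 to 0.33) have intervals that include 0. For Sqle, the sign depends on scaling, at -0.02 with median-of-ratios size factors and -0.04 with quantile normalization.

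The 7 mevalonate genes, which carry acetyl-CoA to farnesyl diphosphate, overlapped between groups without exception. Idi1, the isopentenyl diphosphate isomerase, was at 22.3, 19.7 and 84.8 CPM in CTL versus 42.2, 169 and 148 CPM in Nelfb-/- cells. Nelfb-/- replicates 2 and 3 were the highest libraries, and replicate 1 lay below CTL replicate 3. The means were 42.3 ± 36.9 and 120.0 ± 68.2 CPM, and the limma estimate on the log2 scale was 1.61 (SE 0.73, 95% interval -0.14 to 3.36, limma adjusted p = 0.18). Per kilobase of exon, its rank by mean level was 21 of 33 in CTL and 6 in Nelfb-/- cells. Hmgcs1, the HMG-CoA synthase, was at 217, 221 and 440.1 CPM in CTL versus 122, 361 and 340 CPM in Nelfb-/- cells. Fdps, which makes farnesyl diphosphate, was at 26.2, 20.3 and 63.9 against 13.0, 47.8 and 45.5 CPM. For both, the range within each group was wider than the difference of the means, with log2 fold changes of -0.16 (-1.34 to 1.01) and -0.09 (-1.59 to 1.42). Acat2 (acetoacetyl-CoA formation) was at 33.3 to 76.4 CPM in CTL versus 20.46 to 58.7 CPM in Nelfb-/- cells, and Mvk (mevalonate kinase) at 9.79 to 22.8 and 8.82 to 20.6 CPM. Pmvk, the next kinase, was at 30.01 to 50.9 and 23.4 to 40.9 CPM, and Mvd, the decarboxylase, at 15.9 to 37.0 and 11.7 to 20.7 CPM. The log2 fold changes of these 4 genes lay between -0.49 and 0.17, and the median of all 7 was -0.16. Their summed level was 385, 349.8 and 776 CPM in CTL versus 242, 719 and 657 CPM in Nelfb-/- cells.

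**Figure D2:**
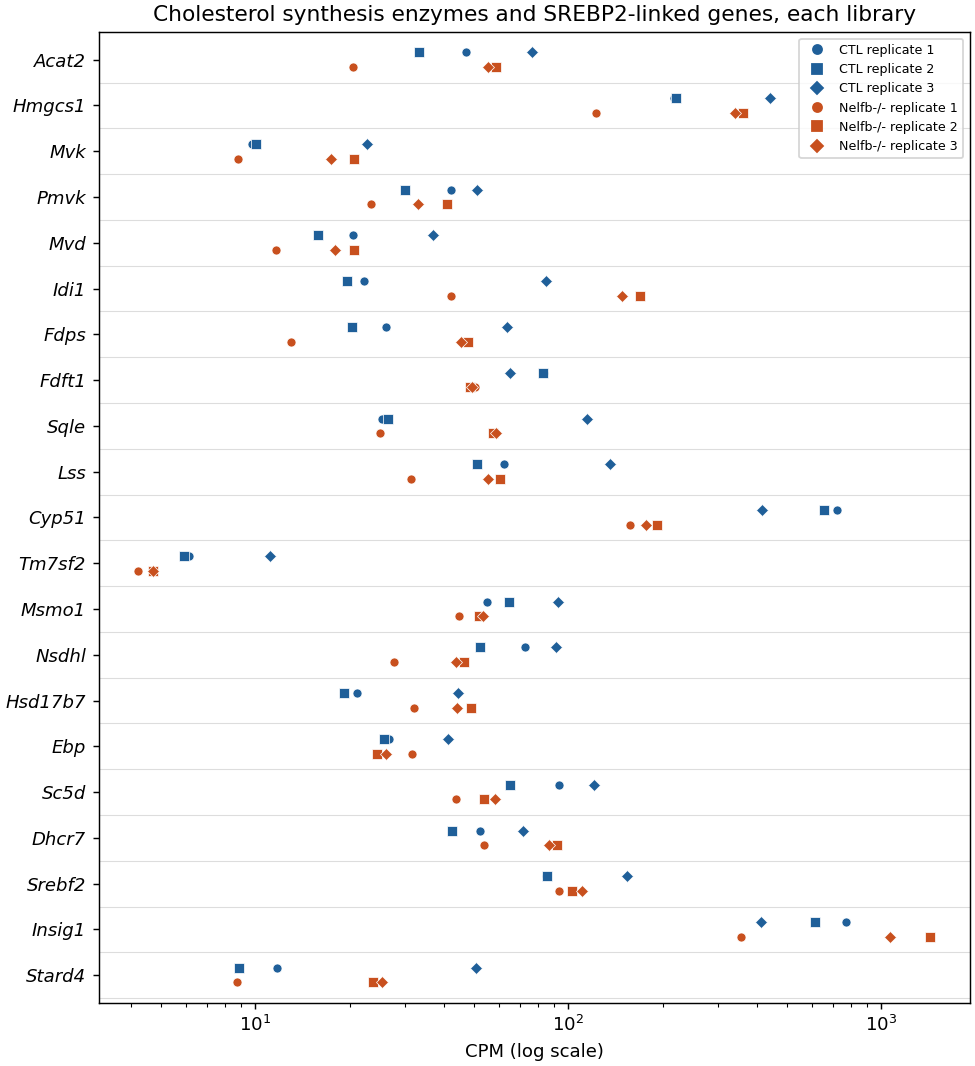
CPM on a log axis for the 18 synthesis enzymes and Srebf2, Insig1 and Stard4, with CTL libraries in blue and Nelfb-/- libraries in orange and the replicate given by the marker shape. The blue diamond (CTL replicate 3) is the highest CTL library at 16 of 18 enzymes, Cyp51 and Fdft1 being the exceptions, and some markers lie on top of each other.

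The order of the libraries recurred across the enzymes. CTL replicate 3 was the highest CTL library at 16 of 18 enzymes (47.9% of all genes tested), Nelfb-/- replicate 1 the lowest Nelfb-/- library at 16 of 18 (45.0% of all), and both held at 15 of 18 (32.5% of all). Both held at 7 of 7 mevalonate genes. The sum of fibroblast markers, carried by the collagens, was likewise high in CTL replicate 3 and low in Nelfb-/- replicate 1. The sum of adipocyte markers was the lowest of its group in both libraries. The part of these markers in the enzyme levels was not tested. Without these 2 libraries the log2 fold change was 2.92 for Idi1, 1.20 for Hsd17b7, 1.16 for Sqle and 1.01 for Fdps, which were then called higher, and 0.68 for Hmgcs1 and 0.93 for Mvk. In that fit 6 of the 21 genes of the SREBP2 arm were called, 5 higher (these 4 and Stard4 at 1.26) and 1 lower (Cyp51), while 17.7% of all genes were called higher.

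The sterol sensors were compared next. Srebf2, which encodes SREBP2, was at 85.1, 85.5 and 154 CPM in CTL versus 93.4, 103 and 110.5 CPM in Nelfb-/- cells, with a log2 fold change of -0.03 (-0.64 to 0.58). Insig1, a retention protein that is itself a target of SREBP2, was at 773, 615 and 414 CPM in CTL versus 356, 1431 and 1068 CPM in Nelfb-/- cells. Its lowest and highest values both fell in Nelfb-/- cells, and the log2 fold change was 0.49 (-0.81 to 1.79), moving from 0.085 without Nelfb-/- replicate 2 to 1.09 without Nelfb-/- replicate 1. Insig2, the other retention protein, was at 103, 138 and 64.5 against 131, 61.6 and 58.3 CPM (log2 fold change -0.32, -1.28 to 0.63). Scap, the SREBP escort, was at 45.7, 47.1 and 52.6 CPM in CTL versus 70.1, 65.0 and 63.9 CPM in Nelfb-/- cells. It was the member whose Nelfb-/- values all lay above the CTL values (22.0% of all genes tested did), with means of 48.5 ± 3.63 and 66.3 ± 3.29 CPM, and its log2 difference of 0.45 (SE 0.12, limma adjusted p = 0.053) missed both limits, with an adjusted p of 0.032 to 0.19 when 1 library was left out. Stard4, a cytosolic sterol carrier, was at 11.7, 8.87 and 50.6 against 8.72, 23.7 and 25.4 CPM, and its interval of -1.75 to 1.75 includes changes of over 2-fold in either direction. Without both libraries that stood apart, the log2 fold change was 0.84 for Insig1, -0.99 for Insig2 and 0.47 for Scap.

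Both LXR genes were lower in Nelfb-/- cells without overlap, as were 16.1% of all genes tested, and neither was called. Nr1h3, which encodes LXRα, was at 56.2, 63.3 and 63.8 CPM in CTL versus 37.1, 46.8 and 39.7 CPM in Nelfb-/- cells. The means were 61.1 ± 4.25 and 41.2 ± 5.02 CPM, and the difference of -0.57 on the log2 scale (SE 0.14, limma adjusted p = 0.041) passed the adjusted p limit and not the fold limit. Nr1h3 missed that limit in all 6 fits that left out 1 library (limma adjusted p = 0.057 to 0.16), though its sign held in each, and its log2 fold change was -0.47 without both libraries that stood apart. Nr1h2, which encodes LXRβ, was at 69.2, 82.1 and 62.1 against 59.2, 36.0 and 35.5 CPM. Nelfb-/- replicate 1 came close to the lowest CTL value, and the gene's difference of -0.74 on the log2 scale (SE 0.24) had a limma adjusted p of 0.082.

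None of the 4 LXR targets passed either limit in limma, and none had an unadjusted p under 0.05. Abca1, which loads cholesterol onto lipid-poor apolipoproteins, was at 297, 232 and 305 CPM in CTL versus 249.6, 164 and 194 CPM in Nelfb-/- cells. The groups overlapped through Nelfb-/- replicate 1, and the log2 fold change was -0.47 (-0.96 to 0.03). Abcg1, which exports cholesterol to high-density lipoprotein, was at 114, 145 and 117 against 146, 55.5 and 54.1 CPM. Nelfb-/- replicate 1 was level with the highest CTL library and the other 2 Nelfb-/- libraries were far below it, so that the log2 fold change was -0.72 (-1.65 to 0.22, adjusted p = 0.26) with all libraries and -1.19 (adjusted p = 0.012, of a range of 0.012 to 0.57 over the 6 fits that left out 1 library) without Nelfb-/- replicate 1, where it was called. Apoe, the lipoprotein ligand, had the highest level of the set per kilobase, at 4089, 4005 and 1688 CPM in CTL versus 7012, 1616 and 2343 CPM in Nelfb-/- cells. Mylip, the ubiquitin ligase that degrades lipoprotein receptors, was at 52.0, 43.1 and 32.3 against 90.7, 35.9 and 39.9 CPM. In both, Nelfb-/- replicate 1 was the highest of the 6 libraries, and the log2 fold changes of -0.02 (-1.57 to 1.53) and 0.28 (-0.63 to 1.19) have intervals around 0.

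**Figure D3:**
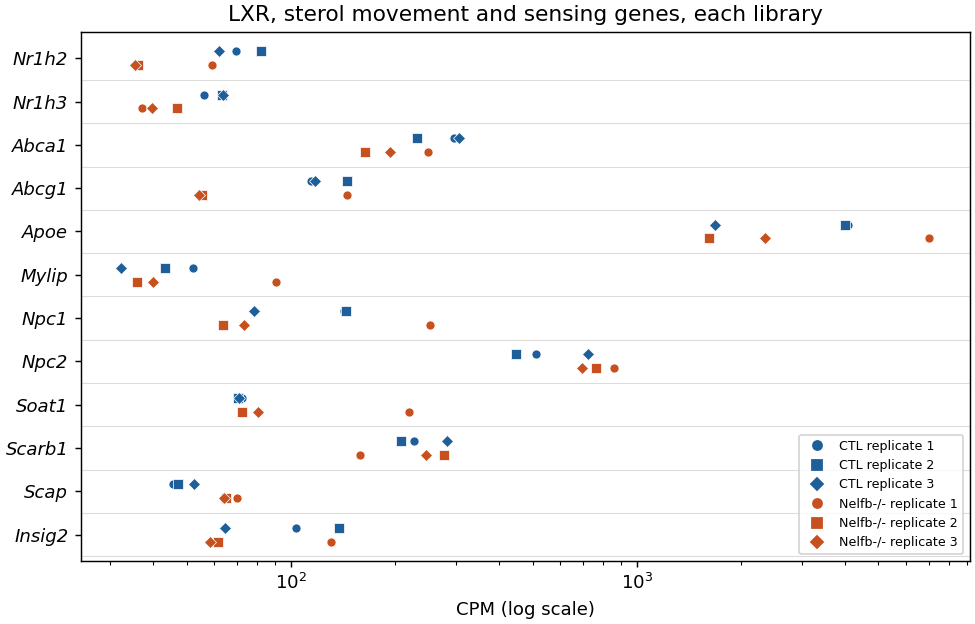
CPM on a log axis for the LXR arm and the sensing and movement genes, with CTL libraries in blue and Nelfb-/- libraries in orange and the replicate given by the marker shape. The orange circle (Nelfb-/- replicate 1) is the highest Nelfb-/- library at all genes of the plot but Nr1h3 and Scarb1.

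The 4 genes of movement and storage had a median log2 fold change of 0.19, and none was called. Soat1, which esterifies cholesterol, was at 72.3, 70.1 and 70.6 CPM in CTL versus 219, 72.0 and 80.3 CPM in Nelfb-/- cells. The CTL libraries were nearly equal, and the mean difference rested on Nelfb-/- replicate 1. Npc1, the lysosomal membrane exporter of cholesterol, was at 143, 144 and 78.4 against 253, 63.5 and 73.3 CPM, and here too that library was the highest. Npc2, its soluble partner, was at 511, 448 and 725 against 858, 763 and 693 CPM. Scarb1, the high-density lipoprotein receptor, was at 228, 209 and 282 against 158, 276 and 245 CPM. The log2 fold changes were 0.61 (-0.38 to 1.60), -0.15 (-1.48 to 1.18), 0.48 (-0.07 to 1.04) and -0.11 (-0.70 to 0.48), in that order. Exons of Npc1, Scap and Hmgcs1 also overlap other genes of the table on the opposite strand.

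Nelfb-/- replicate 1 was the highest Nelfb-/- library at 4 of 4 LXR targets and 3 of 4 movement genes, against 44.1% of all genes tested. It also had the highest sum of 8 macrophage markers, at 5928 CPM against 1896 and 3234 CPM in the other Nelfb-/- libraries and 716, 379 and 191 CPM in CTL. All 8 markers were higher in Nelfb-/- cells, and none was at the floor in all libraries. Of these markers, 7 were called higher (Adgre1, Csf1r, Ptprc, Mrc1, Lyz2, C1qa and Itgam), against 7.58% of all genes tested. The part of these cells in the levels of the LXR targets and movement genes was not tested, and in bulk samples more or fewer cells of a type and more or less RNA per cell cannot be told apart. Without CTL replicate 3 and Nelfb-/- replicate 1, the log2 fold change was -1.23 for Abcg1, -1.07 for Nr1h2, -1.06 for Apoe and -1.07 for Npc1, which were then called lower, while Abca1 was at -0.56, Soat1 at 0.09 and Npc2 at 0.60. In that fit 9.37% of all genes were called lower.

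**Figure D4:**
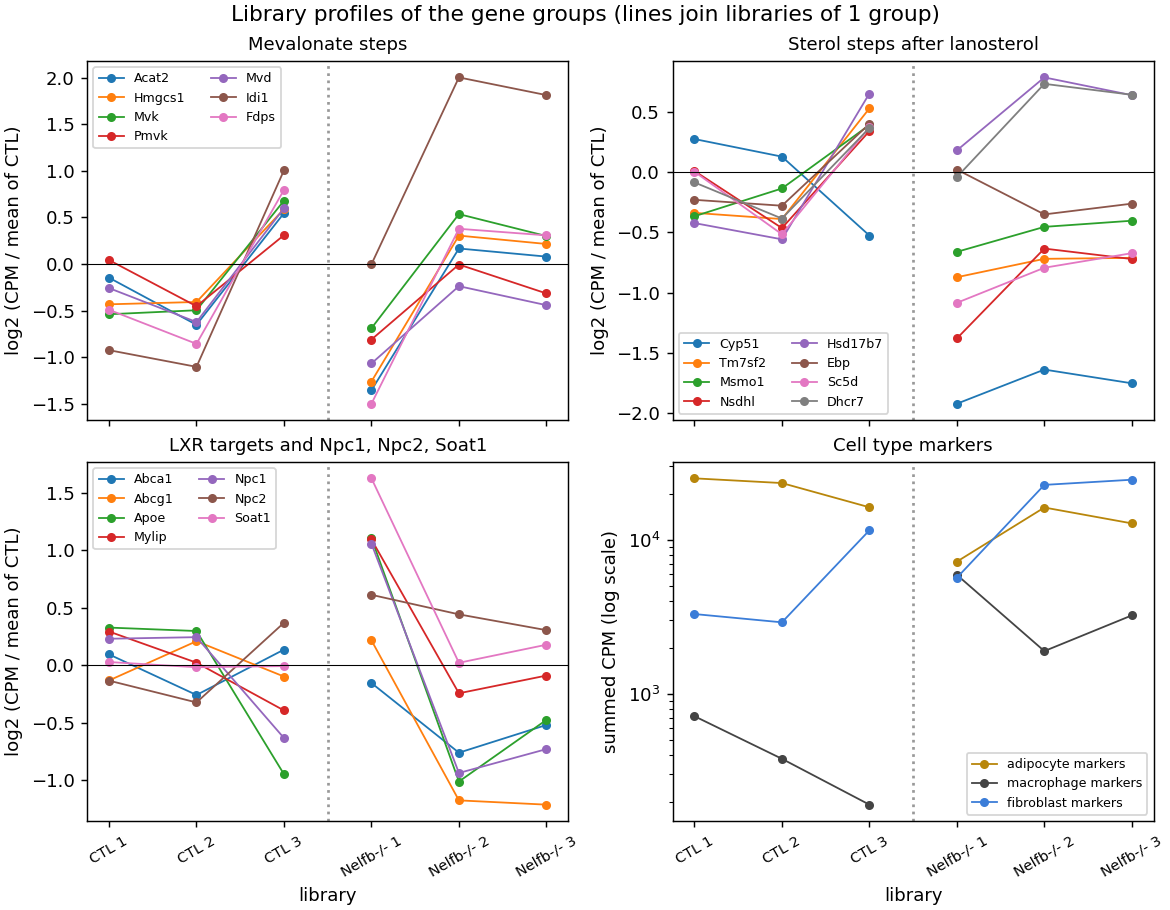
Profiles over the 6 libraries of the mevalonate genes, the sterol genes after lanosterol, and the LXR targets with Npc1, Npc2 and Soat1 (log2 of CPM over the CTL mean), and the summed CPM of adipocyte, macrophage and fibroblast markers on a log axis. Lines join libraries of 1 group for tracing and carry no order; the mevalonate genes share a high CTL replicate 3 and a low Nelfb-/- replicate 1, and macrophage markers are at 5928 CPM in Nelfb-/- replicate 1.

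Melanocyte and skeletal muscle markers were also higher in Nelfb-/- cells. Marker calls are to be read against the 3.64% of all genes called lower and 7.58% called higher. The summed melanocyte level was 1.22 to 1.36 CPM in CTL versus 18.8 to 37.1 CPM in Nelfb-/- cells (4 of 4 called, Tyr, Dct, Pmel and Mlana, with Tyr listed at 0 in every CTL library). Skeletal muscle markers summed to 1.33 to 5.23 and 12.5 to 44.5 CPM (Myog and Myh3 called). Of the 7 adipocyte markers, 5 were lower and 2 higher (median log2 fold change -1.04), with Retn called lower and Lep called higher. Of the 4 smooth muscle or pericyte markers, 2 were higher, with Des called, and 2 were lower, among them Myh11 without overlap (100.1 to 106 CPM in CTL, 50.2 to 95.02 CPM in Nelfb-/- cells, not called). Krt14 of keratinocytes was called higher, and no fibroblast or endothelial marker was called. The part of these markers in the levels of the 33 genes was not tested.

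Neighbouring genes of the pathway were taken from 6 further lists, to be read against the 3.64% of all genes called lower and 7.58% called higher. In the list of SREBP processing and sterol-regulated degradation, 0 of 9 were called by limma (0 had an unadjusted p under 0.05), and in that of cholesteryl ester turnover and sterol transfer, 0 of 13 (3 had). Of 16 genes of isoprenoid branches, acetyl-CoA supply and redox partners, 1 was called, Acly, which makes cytosolic acetyl-CoA from citrate. It was at 131, 125 and 436 CPM in CTL versus 529, 1914 and 1642 CPM in Nelfb-/- cells (log2 fold change 2.62). Its library order was that of the mevalonate genes, without overlap between groups.

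Among 10 further LXR partners and targets, 1 was called in each direction (3.64% lower and 7.58% higher over all genes). Apoc1, a small apolipoprotein encoded beside Apoe, was at 108, 117 and 66.8 CPM in CTL versus 7.97, 6.46 and 4.65 CPM in Nelfb-/- cells (log2 fold change -3.92), while Apoe itself overlapped. Arl4c, a small GTPase, was at 8.07, 7.98 and 11.9 against 53.6, 24.3 and 31.7 CPM (1.91). Of 7 lipoprotein and modified lipoprotein receptors, 3 were called higher (7.58% of all genes tested were). These were Msr1, a macrophage scavenger receptor (9.04 to 25.1 CPM in CTL versus 86.8 to 209.96 CPM in Nelfb-/- cells, log2 fold change 3.36), Olr1, a receptor of oxidized lipoprotein (30.7 to 40.4 and 91.7 to 114 CPM, 1.53) and Lrp8, an apolipoprotein E receptor (2.29 to 5.81 and 7.10 to 13.8 CPM, 1.68).

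Among oxysterol enzymes, 3 of 5 tested were called, 2 lower and 1 higher, against 3.64% and 7.58% of all genes tested. Cyp7b1, which hydroxylates and clears oxysterols, was at 7.17, 6.35 and 17.95 CPM in CTL versus 23.9, 49.6 and 58.3 CPM in Nelfb-/- cells (log2 fold change 2.13). Hsd3b7, the next enzyme of bile acid synthesis, was at 74.3, 83.5 and 50.7 against 38.3, 18.9 and 22.1 CPM (-1.43). Cyp39a1, an oxysterol hydroxylase, was at 12.3, 11.9 and 6.77 against 3.41, 5.12 and 3.35 CPM (-1.35). None of the 3 overlapped between groups, and Cyp7b1 moved opposite to the other 2.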

How the data were processed

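RNA-seq values of 3 CTL and 3 Nelfb-/- libraries were analysed from the table that the authors deposited, in CPM (each column summed to 1e+06 after an offset of 0.0001 was subtracted). The submitters' processing notes name STAR 2.7, Partek 9.0.20.0202 and mm10, and the study's methods name DESeq2 and Partek. The counting step and annotation are not given in the sources used here. From 69.5% to 72.1% of values up to 20 reads were whole reads (within 0.02), and no count test was run. CPM were multiplied by the estimated common depth (22.3 M reads, M being 1e+06). Genes whose mean reached 10 reads were tested on log2(value + 1) with limma 3.58.1 (R 4.3.3, abundance trend). Fold changes are on that scale, which understates changes of low genes. Gene positions were matched to GENCODE vM21. Named were all 33 members, the called genes of the further lists, called markers and Nelfb, apart from 1 marker list that is not reported here. The choice to name uncalled fibroblast and adipocyte markers, Myh11 and genes whose exons overlap members came after seeing their values. Members and lists were chosen with earlier results of these data known. The fit was tested on simulated data, and 15 alternatives, with 1 added after the data were seen, are given below.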

Additional observations from a re-analysis of the deposited data

How the results depend on the processing

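Of 495 member fits under 15 alternatives, 463 kept their direction and their call (past both limits or not), 1 lost its call (Cyp51 without Nelfb-/- replicate 3), 2 gained one (Hsd17b7 and Abcg1) and 29 changed sign. Outside the fits that left out 1 library, the changes of sign were those of Sqle with median-of-ratios size factors (-0.023) and quantile normalization (-0.038). Leaving out each library in turn gave 426 to 2479 genes called, 0 to 2 members called, 0 to 2 of the SREBP2 arm and 0 to 1 of the LXR arm. The genes called numbered 871 without CTL replicate 1, 758 without CTL replicate 2, 945 without Nelfb-/- replicate 2 and 426 without Nelfb-/- replicate 3. Log2 fold changes that changed sign then ranged from -0.076 to 0.56 (Mvk), -0.33 to 0.76 (Sqle), -0.64 to 0.42 (Apoe), -0.57 to 0.21 (Acat2), -0.44 to 0.34 (Hmgcs1), -0.42 to 0.53 (Fdps), -0.28 to 0.057 (Ebp), -0.17 to 0.26 (Srebf2), -0.49 to 0.77 (Stard4), -0.27 to 0.13 (Scarb1), -0.14 to 0.53 (Mylip) and -0.78 to 0.22 (Npc1). A test gene by gene without moderation called 684 genes in place of 1824. Quantile normalization called 1014 genes higher and 834 lower, against 1232 and 592.

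The 2 against 2 fit without CTL replicate 3 and Nelfb-/- replicate 1 was added after the data were seen, and its libraries were picked because they stood apart. It called 4383 genes (2864 higher, 1519 lower), 10 members, 6 of the SREBP2 arm and 3 of the LXR arm. It turned the sign of Acat2 (0.52), Hmgcs1 (0.68), Pmvk (0.045), Mvd (0.10), Fdps (1.01), Lss (0.036), Srebf2 (0.32), Stard4 (1.26), Scarb1 (0.26) and Mylip (-0.32). The directions of these 10 genes therefore rest on which libraries are included, and the cause was not tested.

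Fdft1 and Nr1h3, past the adjusted p limit and not the fold limit, also missed the former without an abundance trend (0.054 and 0.069) and without moderation (0.061 and 0.067). Members that gained the adjusted p limit were Scap with 10 reads in every sample of a group (0.048) and without CTL replicate 3 (0.032), Tm7sf2 with quantile normalization (0.044), Npc2 and Hsd17b7 without CTL replicate 3 (0.045 and 0.026), and Nr1h2 and Abcg1 without Nelfb-/- replicate 1 (0.018 and 0.012). With the replicate number as a block, Fdft1 and Nr1h3 missed it as well (0.051 and 0.061), and 2175 genes and 1 member were called. Deviations of same-numbered libraries from their group means correlated at 0.52, -0.39 and 0.52, so the numbers were not taken to pair the libraries. With 3 libraries a group, the wide intervals limit what can be said of members that missed the limits.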
